A study of Mus musculus with 4 samples.

Results

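The genes described here are 37 genes of the central nervous system, chosen by name: genes of the synaptic vesicle and its fusion machinery, of transmitter synthesis and transport, of glutamate receptors and the postsynaptic density, of the neuronal cytoskeleton, of neuronal transcription factors and of glia. All probe sets annotated to exactly 1 of these symbols were taken. They numbered 89 of the 45037 probe sets that are not controls and covered 36 of the 18193 genes measured in this way, and Grin1 was not analysed here. The members were measured in 3 arrays of whole ureters and in 1 array of a pool of whole mice. The ureters were dissected free of kidney and bladder from FVB/N males at postnatal day 1 (Theiler stage 27) that carried an SMGA/EGFP transgene, named in the series after the smooth muscle gene Actg2, and were not pooled. The reference, from FVB/N mice of both sexes at the same age, had no reported transgene. The effects of tissue, transgene, sex and pooling therefore cannot be told apart. Every RNA sample had passed through 2 rounds of amplification. The labels do not state whether each ureter sample is another animal, and the p-values then describe only how these samples vary, which may be technical. The lone reference was assumed to vary like the ureters.

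Neurons release transmitter when a calcium rise makes SNARE proteins on a vesicle and on the cell membrane zip together, and the receiving cell reads the transmitter with receptors held in a protein scaffold. Oligodendrocytes wrap axons in myelin and astrocytes support the synapse. The central nervous system is the brain, the spinal cord and the retina, which a whole newborn mouse contains and a ureter does not. A ureter receives autonomic and sensory axons with their Schwann cells, and a whole mouse contains peripheral neurons too. Many proteins of the central synapse are also used at peripheral nerve endings and in other secreting cells.

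The tissue label was checked against ureter genes. Of 10 such genes 9 were called higher in the ureters, where 2.94% of all tested genes were. Among them were Upk3a of the urothelial plaque (5.75 ± 0.41 log2, adjusted p = 0.00503), Upk1b (5.65 ± 0.29), the mesenchymal regulator Tbx18 (5.23 ± 0.27) and the smooth muscle myosin gene Myh11 (3.14 ± 0.28). The smallest differences were those of Actg2 (1.26 ± 0.21), which was called, and of the plaque gene Upk2 (0.95 ± 0.42, adjusted p = 0.232), which was not. Every difference is on the log2 scale, ureter minus reference, and carries the standard error (SE) from limma (3 ureters, 1 reference), and p-values are limma's with Benjamini-Hochberg adjustment over the 27022 probe sets tested. Intensities in the text are quantile-normalized. A value was taken as above background when it exceeded the brightest of 27 probe sets for bacterial genes on the same array, a limit of 94.2, 188 and 134 in ureter replicates 1, 2 and 3 and of 127 in the reference. Over all genes the median difference was 0.10, and it was -0.15 with the arrays scaled as deposited and 0.58 with median-centred arrays.

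Most of the central nervous system genes were dimmer in the ureters than in the newborn body. The 6 called genes included Mapt and Map2 of the axonal and dendritic cytoskeleton. With each gene taken at its brightest probe set, the median difference of the 36 genes was -2.12, against 0.10 for all genes. With the 8 genes that have only a bound placed at it, and 4 genes with no fold left out, the median was -1.81, against 0.080 for all genes treated in the same way. Relative to the median of all genes it was -2.22, and -2.45 both as deposited and with median-centred arrays. All 3 ureters lay below the reference for 26 of the 36 genes (72.2%), where 29.3% of all genes did so, and above it for 3 (Gria4, Grin2b and Mog, the last at background in every array), where 37.7% of all genes did. Of the members, 29 genes and 47 of the 89 probe sets passed the filter on dim probe sets. In limma's test 6 genes were called lower and 0 higher, with a background of 4.77% lower and 2.94% higher among the 13721 genes tested. At an unadjusted p under 0.05 the counts were 17 and 0, where 12.5% of all tested genes were lower and 13.8% higher. Without ureter replicate 3, 4 member genes were called lower. Over probe sets the counts were 8 lower and 0 higher, and 3.49% and 2.68% of all tested probe sets were called in those directions. The filter keeps a probe set that is bright in the reference alone, so these counts cannot stand for all members. Without it 6 of the 36 genes were lower as well, where 2.64% of all genes were, with Neurod6 in and Gria2 out. At the brightest probe set of 8 members the reference was above background and all 3 ureters were at it, which held for 4.18% of all genes. In 4 of the 8 (Gfap, Gad1, Gad2 and Slc32a1) another probe set was above background in at least 1 ureter. In bulk tissue, fewer cells of a type and less RNA per cell cannot be told apart.

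**Figure D1:**
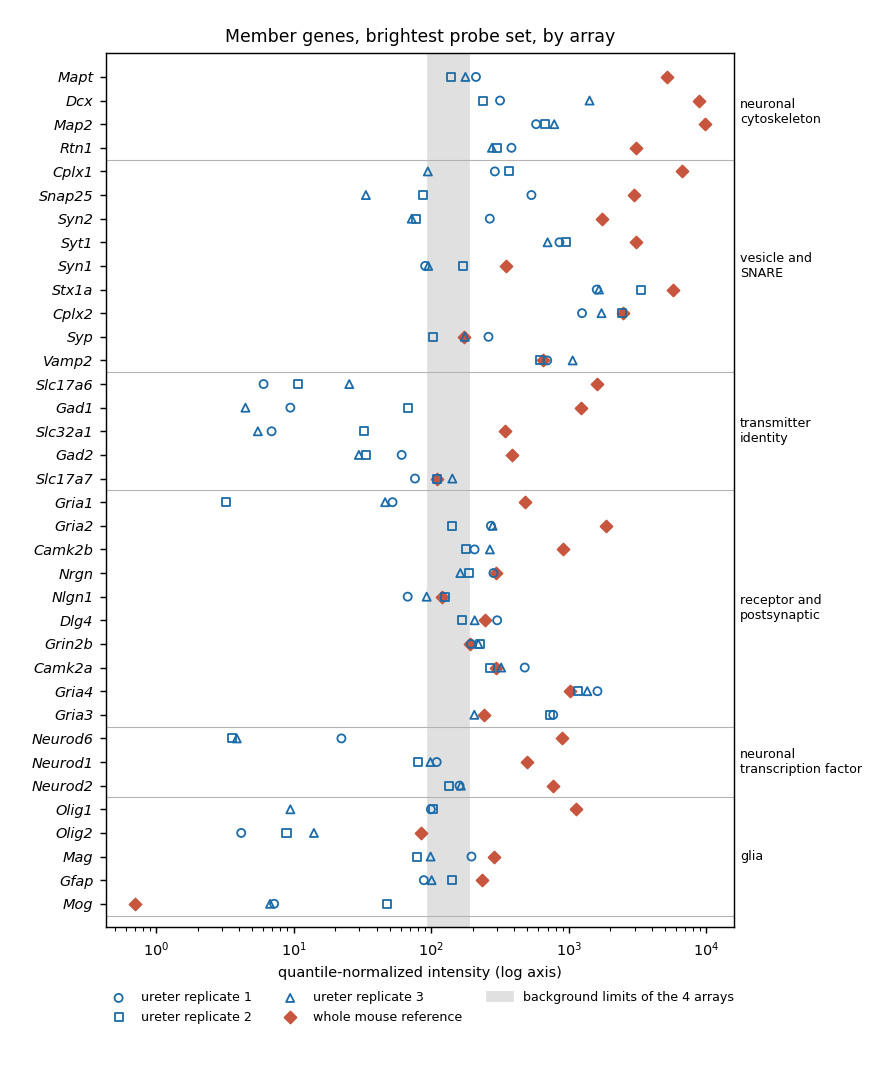
Quantile-normalized intensity (log axis) of the 36 member genes at their brightest probe set, with blue open symbols for ureter replicates 1 to 3, red diamonds for the reference and a grey band over the range of the background limits of the 4 arrays. The reference lies to the right of all 3 ureters for 26 genes, and all 3 ureters fall left of the band for Slc17a6, Gad1, Slc32a1, Gad2, Gria1, Neurod6, Olig2 and Mog.

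Promoter sequences are given for the 4 members whose promoter holds a near match to both parts of RE1. RE1 is the element bound by REST, a repressor of neuronal genes in cells that are not neurons. The windows, from RefSeq (GRCm38.p6), run from 250 bases before to 50 after a gene start, and 40 windows of 29 members were found. RE1 was searched as CAGCACC, 2 bases of any kind and GGACAG, on both strands, with at most 1 mismatch over the 13 fixed letters. Such a match was present in 4 of the 29 members (13.8%) and in 0.211% of the 27025 genes with a window. Each of the 4 matches in members had 1 mismatch, so none was exact. In capitals, and labelled RE1 below, are the bases of each match from its first part to the last. In Syn1 capitals also mark the cAMP response element TGACGTCA, which 1 of the 29 members and 2.03% of all genes held.
Syn1, chrX:20920869-20921168, minus strand, RE1 at position -230 and the cAMP response element at -159 from the gene start: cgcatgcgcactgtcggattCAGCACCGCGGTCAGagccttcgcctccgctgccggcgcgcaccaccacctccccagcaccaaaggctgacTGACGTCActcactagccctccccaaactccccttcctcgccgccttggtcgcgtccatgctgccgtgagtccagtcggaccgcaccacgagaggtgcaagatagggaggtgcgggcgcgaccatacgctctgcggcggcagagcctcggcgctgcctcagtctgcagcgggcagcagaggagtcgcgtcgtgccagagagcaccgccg
Gad2, chr2:22622077-22622376, plus strand, RE1 at position -164: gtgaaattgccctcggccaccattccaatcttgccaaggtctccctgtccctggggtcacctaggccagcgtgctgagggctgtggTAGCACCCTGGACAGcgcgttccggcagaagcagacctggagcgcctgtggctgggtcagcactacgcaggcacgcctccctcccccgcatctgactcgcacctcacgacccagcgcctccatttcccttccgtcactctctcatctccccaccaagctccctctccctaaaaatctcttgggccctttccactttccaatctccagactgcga
Gria2, chr3:80802786-80803085, minus strand, RE1 at position -170 and read on the strand opposite to the gene: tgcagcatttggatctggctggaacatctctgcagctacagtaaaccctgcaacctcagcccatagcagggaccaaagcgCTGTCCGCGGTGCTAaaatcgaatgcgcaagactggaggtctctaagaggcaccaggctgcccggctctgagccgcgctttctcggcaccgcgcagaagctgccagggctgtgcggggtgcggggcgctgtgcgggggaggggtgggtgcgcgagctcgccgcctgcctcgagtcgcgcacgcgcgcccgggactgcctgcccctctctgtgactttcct
Slc17a6, chr7:51621580-51621879, plus strand, RE1 at position 34 and on the opposite strand: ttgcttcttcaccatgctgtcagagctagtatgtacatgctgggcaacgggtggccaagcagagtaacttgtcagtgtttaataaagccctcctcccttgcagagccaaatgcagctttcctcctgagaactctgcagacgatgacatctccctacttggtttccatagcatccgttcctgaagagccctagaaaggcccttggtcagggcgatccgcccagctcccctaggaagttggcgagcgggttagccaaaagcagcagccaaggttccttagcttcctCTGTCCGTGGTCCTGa
A match is a description of letters and no evidence of binding, and the windows without one say nothing about the factor.

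The genes grouped as neuronal cytoskeleton, with Rtn1 placed among them, gave 3 calls among 4 genes, all lower, with a median difference of -4.01. Mapt, which encodes the axonal microtubule protein tau, had normalized intensities of 211, 138 and 177 in the ureters, against 5193 in the reference. The ureters were close to each other, 2 of the 3 were above background, and the difference was -4.81 ± 0.48 (28.1-fold lower, adjusted p = 0.00932). Map2, the microtubule protein gene of dendrites, had 578, 669 and 782 in the ureters, against 9784 in the reference. All 3 ureters were above background and far below the reference, with a difference of -3.84 ± 0.40 (14.3-fold lower, adjusted p = 0.00970). Rtn1, which encodes an endoplasmic reticulum protein of neurons and endocrine cells, had 382, 298 and 276 in the ureters, against 3077 in the reference. All 3 ureters were above background and the difference was -3.24 ± 0.45 (9.42-fold lower, adjusted p = 0.0175), a call that ended without ureter replicate 3 (0.0848). Dcx, the doublecortin gene of migrating young neurons, had 316, 236 and 1413 in the ureters, against 8833 in the reference. Replicate 3 stood above the other ureters, and the gene missed the threshold at this probe set (-4.18 ± 0.97, adjusted p = 0.0622). Without replicate 3 it passed (-4.95, adjusted p = 0.0355), and so did its second probe set with all ureters (-4.88 ± 0.87, adjusted p = 0.0314), which had 101, 340 and 524 in the ureters, against 8130 in the reference.

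In the vesicle and SNARE genes 1 of 9 was called lower, and the differences ran in a range, with Cplx1, Snap25 and Syn2 lowest, Syt1, Syn1 and Stx1a between, and Cplx2, Syp and Vamp2 nearest to 0. Cplx1, a complexin gene whose protein clamps and then helps vesicle fusion, had 290, 368 and 94.3 in the ureters, against 6669 in the reference. The difference was -4.86 ± 0.77 (adjusted p = 0.0242), with 2 of 3 ureters above background, and it did not pass without an intensity trend in the variance (0.0576). Snap25, a SNARE gene of the neuronal cell membrane, had 534, 86.6 and 33.4 in the ureters, against 2988 in the reference. Only replicate 1 was above background, the ureters were further apart than for any other member, and the difference of -4.47 ± 1.31 did not pass (adjusted p = 0.106), although it did without replicate 1 (-5.48, adjusted p = 0.0150). Syn2, a synapsin gene of the vesicle surface, had 266, 76.9 and 72.1 in the ureters, against 1739 in the reference. Here too only replicate 1 was above background. It missed the threshold (-3.78 ± 0.83, adjusted p = 0.0552) and passed without replicate 1 (0.0192), as deposited (0.0429), with median-centred arrays (0.0361) and with an offset of 64 (0.0313).

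Syt1, the gene of the calcium sensor of vesicle release, was above background in all 3 ureters. Its intensities were 854, 947 and 700 in the ureters, against 3053 in the reference. The ureters were alike and the difference was -1.87 ± 0.40, which missed the threshold (adjusted p = 0.0518) and passed without replicate 2 (0.0466) or with an offset of 64 (0.0447), while with median-centred arrays the adjusted p was 0.267. Syn1, the other synapsin gene, was at background in all 3 ureters at 90.2, 169 and 94.9, against 351 in the reference, so its fold is a bound (at least 2.49-fold lower, adjusted p = 0.252). Stx1a, the partner SNARE of Snap25 on the cell membrane, had 1593, 3363 and 1653 in the ureters, against 5689 in the reference (-1.45 ± 0.52, adjusted p = 0.159), and passed without replicate 2 (0.0437). That probe set carries the maker's suffix for probes that may match other transcripts. The other Stx1a probe set had 246, 224 and 228 in the ureters, against 227 in the reference (0.03 ± 0.54).

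Vamp2, Cplx2 and Syp were the vesicle genes nearest to the reference. Vamp2, the SNARE of the vesicle itself, had 696, 614 and 1065 in the ureters, against 651 in the reference. The reference lay among the ureters (0.24 ± 0.48, adjusted p = 0.817), and the difference was -0.13 as deposited. Cplx2, the second complexin gene, had 1246, 2440 and 1725 in the ureters, against 2453 in the reference, a difference of -0.49 ± 0.47 (adjusted p = 0.584) that turned to 0.20 with median-centred arrays. The vesicle membrane gene Syp had 260, 102 and 175 in the ureters, against 172 in the reference (-0.03 ± 0.73, adjusted p = 0.986), and the sign turned without replicate 2 (0.30). Syp was dim in every array and at background in replicate 2, so its small difference does not show similar expression.

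Of the 5 genes that set which transmitter a neuron uses, 4 were at background in all 3 ureters and above it in the reference at their brightest probe set, and 1 of the 3 tested was called lower. Other probe sets of 3 of them were above background in ureter replicate 1 and at background in the reference, with 121 in replicate 1 against 18.1 in the reference for Gad1. The corresponding values were 145 in replicate 1 against 98.8 in the reference for Gad2, and 128.5 against 7.95 for Slc32a1. Slc17a6, the vesicular glutamate transporter gene of subcortical neurons, had 6.04, 10.8 and 25.3 in the ureters, against 1590 in the reference. No ureter was near its background limit, and the gene was at least 10.98-fold lower (adjusted p = 0.0289), a call that ended without replicate 3 (0.0706) and with an offset of 1 (0.0804). It was not tested when the filter used the mean of the 4 arrays. Gad1, which encodes the main enzyme of GABA synthesis, had 9.45, 67.5 and 4.46 in the ureters, against 1220.5 in the reference. It was at least 8.45-fold lower and missed the threshold (adjusted p = 0.0600), passing without replicate 2 (0.0378), with median-centred arrays (0.0358) and with an offset of 64 (0.0134). Gad2, the gene of the synaptic GABA enzyme, had 60.9, 33.3 and 29.8 in the ureters, against 387 in the reference (at least 2.73-fold lower, adjusted p = 0.122). Slc32a1, which loads GABA and glycine into vesicles, had 6.91, 32.5 and 5.49 in the ureters, against 345 in the reference. It fell below the filter and was not tested, with a bound of at least 2.45-fold lower. Slc17a7, the glutamate transporter gene of cortical neurons, was at background in the reference too (110), against 76.1, 110 and 142 in the ureters, and only replicate 3 exceeded its limit.

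The receptor and postsynaptic genes lay closest to the reference as a group, with a median of -0.24 over 10 genes, 1 called lower and 4 with all ureters below the reference. Dlg4, Nrgn and Grin2b were dim in both groups, with some values close to the background limits. Nlgn1 was at background in all arrays at its brightest probe set. Small differences of such genes do not show similar expression. Gria2, the AMPA receptor subunit gene that makes the channel impermeable to calcium, had 271, 142 and 279 in the ureters, against 1875 in the reference. The difference was -3.01 ± 0.57 (8.08-fold lower, adjusted p = 0.0367) with 2 of 3 ureters above background. The call ended without replicate 3 (0.111), with no filter (0.0749), with no trend (0.0599) and when its probe sets were averaged (0.0633). Gria1, another AMPA subunit gene, had 52.3, 3.24 and 46.1 in the ureters, against 481 in the reference, and was not tested (at least 3.38-fold lower). Gria4 differed from these subunits, with 1613, 1167 and 1360 in the ureters, against 1025 in the reference. All 3 ureters were above background and above the reference, and the difference of about 1 SE did not pass (0.41 ± 0.40, adjusted p = 0.589), and a second probe set gave 0.40 ± 0.55. Gria3, the remaining AMPA subunit gene, had 769, 724 and 205 in the ureters, against 242 in the reference (0.97 ± 0.82, adjusted p = 0.528), with replicate 3 apart from the others.

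Among the postsynaptic kinases, Camk2b had 206, 177 and 267 in the ureters, against 910 in the reference, a difference of -2.03 ± 0.52 that did not pass (adjusted p = 0.0777). It passed when genes were taken as the mean of their probe sets (0.0333), of which it has 1, so that only the other features tested differ. Camk2a, the forebrain form of that kinase, had 478, 267 and 322 in the ureters, against 296 in the reference (0.21 ± 0.55, and -0.42 as deposited). Another Camk2a probe set gave -2.69 ± 1.05 (adjusted p = 0.190). Dlg4, the scaffold gene of the excitatory synapse, had 301, 167 and 207 in the ureters, against 244 in the reference (-0.15 ± 0.61), with replicate 2 at background. Nrgn, a calmodulin-binding protein gene of dendrites, had 283, 189 and 162 in the ureters, against 296 in the reference (-0.50 ± 0.60), above the limit in every array but dim. The NMDA receptor subunit gene Grin2b had 194, 225 and 220 in the ureters, against 191 in the reference (0.14 ± 0.56, and -0.61 as deposited). These values were above the limit in every array but dim. Another Grin2b probe set, not tested, had 15.8, 34.0 and 10.2 in the ureters, against 199 in the reference. All 3 ureters were at background there (at least 1.45-fold lower). Nlgn1, a synaptic adhesion gene, was at background in all arrays at its brightest probe set, and its other probe set read 456, 9.80 and 7.36 in the ureters, against 28.5 in the reference, so that replicate 1 alone was above background.

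The neuronal transcription factor genes Neurod1, Neurod2 and Neurod6 had every ureter below the reference, and limma called 0 of the 2 tested (2 at an unadjusted p under 0.05). Neurod6, a factor of cortical excitatory neurons, had 22.2, 3.54 and 3.85 in the ureters, against 887 in the reference. It was at least 6.16-fold lower, lay under the filter and passed when no filter was used (adjusted p = 0.0361). Neurod2 had 160, 135 and 164 in the ureters, against 764 in the reference (-2.24 ± 0.54, adjusted p = 0.0693), and passed with an offset of 64 (0.0490). Neurod1, which acts in neurons and in endocrine cells of gut and pancreas, had 109, 79.7 and 98.5 in the ureters, against 497 in the reference (-2.25 ± 0.66, adjusted p = 0.107).

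Of the 5 glial genes 3 were tested and limma called 0 (1 lower at an unadjusted p under 0.05). Olig1, a transcription factor gene of the oligodendrocyte lineage, had 99.3, 102 and 9.45 in the ureters, against 1122 in the reference (-4.12 ± 1.14, adjusted p = 0.0943), with 1 of 3 ureters above background. It passed with an offset of 64 (0.0307) and when genes were taken as the mean of their probe sets (0.0479). Olig1 has 1 probe set, so that in the latter only the other features tested differ. The myelin adhesion gene Mag had 196, 78.4 and 98.8 in the ureters, against 288 in the reference (-1.23 ± 0.77, adjusted p = 0.389), and it is a gene of Schwann cells too. Gfap, the filament gene of astrocytes, had 88.2, 142 and 101 in the ureters, against 235 in the reference (at least 1.69-fold lower, adjusted p = 0.431). Its other probe sets, neither of them tested, went the other way. One had 199.7, 138 and 198 in the ureters, against 74.3 in the reference, with 2 ureters above background and the reference at it (at least 1.36-fold higher). The other had 104, 84.8 and 35.4 in the ureters, against 6.03 in the reference (2.16), with 1 ureter above background. Olig2 and Mog were at background in all 4 arrays, the reference included, so these arrays hold no measured difference for them.

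**Figure D2:**
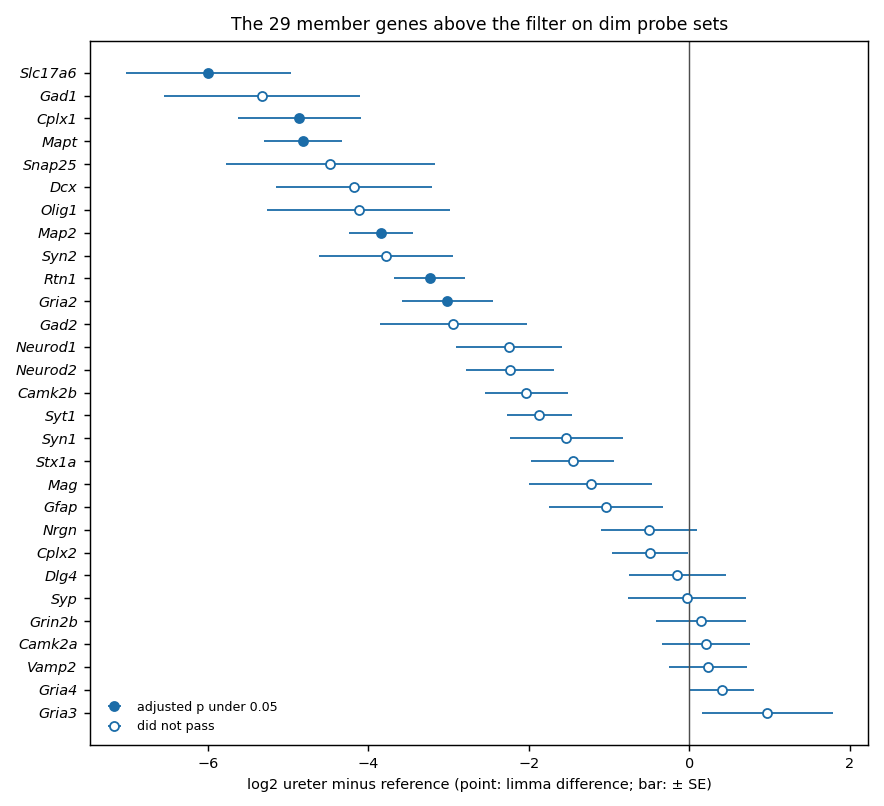
Log2 ureter minus reference for the 29 member genes that passed the filter on dim probe sets, as limma's difference with a bar of ± 1 SE, filled where the adjusted p was under 0.05. The 6 filled points are Slc17a6, Cplx1, Mapt, Map2, Rtn1 and Gria2, and the ureters of Slc17a6, Gad1, Gad2, Syn1 and Gfap were all at background, so that these 5 points mark bounds and have no measured order among the others.

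Probe sets of 1 gene did not always move together. Of the 26 members with more than 1 probe set, 9 had every probe set below 0 and 15 had probe sets of both signs, many of them at background. Counting only probe sets above background in at least 1 array, 20 genes had more than 1, and 9 of these had all below 0, 9 had both signs and 2 (Gria3 and Gria4) had all above 0. Mapt had 2 called probe sets (-4.81 and -4.83 ± 0.87, adjusted p = 0.0319) and another of -0.28 ± 0.72. Cplx1 had the called one, one of -3.58 ± 0.88 (adjusted p = 0.0703) and one level with the reference at 331, 427 and 464 in the ureters, against 381.5 in the reference (0.08 ± 0.48). All 4 probe sets of Dcx and all 6 of Syn2 were below 0. Taken over all 89 probe sets without a choice of the brightest, the median difference was -1.10, against 0.13 over all probe sets.

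**Figure D3:**
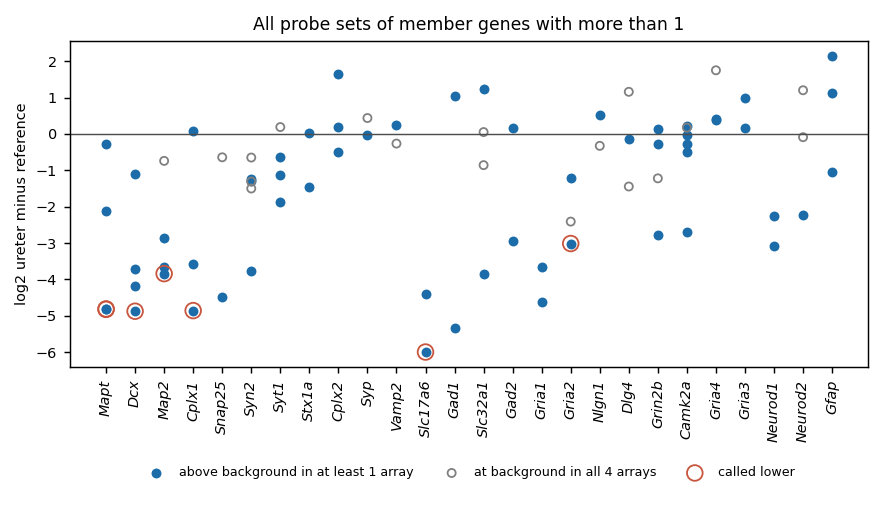
Log2 ureter minus reference of every probe set of the 26 member genes that have more than 1, filled where at least 1 array was above background, open grey where none was, and ringed where called lower. Rings lie on 2 probe sets of Mapt, which overlap, and on 1 each of Dcx, Map2, Cplx1, Slc17a6 and Gria2, while Cplx1 also has a probe set near 0.

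Spread between the ureters was moderate for most members. The median standard deviation over the 3 ureters was 0.44 on the log2 scale, against 0.37 for all genes, and 15 of 36 members spanned more than 1 log2 unit, against 33.1% of all genes. No ureter held the highest value throughout: it was replicate 1 for 15 members, replicate 2 for 12 and replicate 3 for 9. The median difference from the reference was -2.07, -2.24 and -1.99 in replicates 1, 2 and 3. Above their own array's limit were 24, 13 and 19 members in ureter replicates 1, 2 and 3, and 32 in the reference. Of all genes 78.6%, 67.4% and 74.0% were above it in those ureters. The limit was highest in replicate 2, and its part in the lower count there was not tested.

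Related gene lists were set beside the members. The shares to set beside every call count of these lists are those of all tested genes, 4.77% lower and 2.94% higher. Among 21 other genes of neuronal differentiation 7 of the 18 tested were lower, with a median of -2.53. They included Stmn3, a microtubule regulator gene of neurons (331, 509 and 494 in the ureters, against 14336 in the reference, -5.00 ± 0.44, adjusted p = 0.00639), the neuronal filament gene Ina (at least 14.95-fold lower) and the neuronal zinc finger gene Myt1l (-4.06 ± 0.73). Dclk1 (-0.39) and Dpysl3 (-0.57) did not pass at their brightest probe sets. A dimmer Dclk1 probe set had 130, 369 and 24.7 in the ureters, against 4415 in the reference (-5.13 ± 1.22, adjusted p = 0.0654). Another Dclk1 probe set gave 0.60 ± 0.60, and a dimmer Dpysl3 probe set gave 1.64 ± 0.71. Of 20 other brain glia genes 4 of the 19 tested were lower, with a median of -1.57. Ncan and Bcan, which encode matrix proteoglycans of the brain, were at least 26.7-fold and 19.97-fold lower, with all 3 ureters at background, and the myelin gene Mbp was 9.34-fold lower. A further Mbp probe set had 2245, 979 and 2404 in the ureters, against 1151 in the reference, and did not pass (0.59 ± 0.59). Cnp (0.15) and Sox10 (0.13) did not pass. Mbp, Cnp and Sox10 are all genes of Schwann cells too.

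Other presynaptic genes had a median of -1.03 over 23 genes, with 2 lower and 1 higher of 18 tested. Snap91, which encodes an adaptor of vesicle recycling, had a difference of -3.86 ± 0.77 (14.5-fold lower, adjusted p = 0.0418) and Syt4, a synaptotagmin gene, was at least 7.86-fold lower (adjusted p = 0.0443). Rims1, a scaffold gene of the presynaptic active zone, went the other way, with 7892, 5412 and 5935 in the ureters, against 407 in the reference. All 3 ureters lay far above the reference (3.92 ± 0.37, 15.1-fold higher, adjusted p = 0.00771). The second Rims1 probe set had 744, 1353 and 973 in the ureters, against 266 in the reference (1.85 ± 0.49, adjusted p = 0.0844). In 24 other transmitter receptor and postsynaptic genes the median was -0.40 and limma called 0 of 17 tested, with 3 lower (17.6%) and 0 higher at an unadjusted p under 0.05, near the 12.5% of all tested genes that were lower. Of the genes tested, Grin2d (-0.12) and Gabra3 (-0.21) were nearest to the reference in this list, and Nsf (-0.09) and Sv2a (-0.43) in the presynaptic list.

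Relatives of the members with broad expression had a median of 0.18 over 18 genes, all tested. Of these 1 was lower and 0 higher, near the 4.77% of all tested genes that were lower. The lower one was Slc17a5 (-1.68 ± 0.35, adjusted p = 0.0464), a lysosomal sialic acid transporter gene of the family of Slc17a6. Snap23, the widely expressed relative of Snap25, had 4328.5, 2667 and 4230.5 in the ureters, against 1305 in the reference (1.48 ± 0.42, adjusted p = 0.0979), so every ureter was above the reference without passing. Vamp3 (-0.11 ± 0.19), Stx4a (0.60 ± 0.33), Map4 (-0.18 ± 0.26), Rtn3 (-0.33 ± 0.19), Rtn4 (0.23 ± 0.17), Dlg1 (0.73 ± 0.35), Camk2g (0.12 ± 0.36) and Camk2d (1.39 ± 0.51) did not pass either at their brightest probe sets. A dimmer Rtn4 probe set was called lower, with 403, 733 and 726 in the ureters, against 3515 in the reference (-2.53 ± 0.50, adjusted p = 0.0416). Dimmer probe sets of Map4 (-5.02 ± 1.57, adjusted p = 0.122) and Camk2d (-2.71 ± 0.96, adjusted p = 0.157) were lower without passing. Another Camk2d probe set gave 0.82 ± 0.49.

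Markers of peripheral and autonomic neurons, whose axons reach a ureter, and of Schwann cells had a median of -0.16 over 18 genes. Of these 14 were below 0 and 4 above it, and 3 were called lower and 0 higher of 16 tested. Above 0 were Cdh19, Chat, Uchl1 (0.60 ± 0.40) and Slc18a3. Cdh19, not tested, had 550, 180 and 260 in the ureters, against 14.7 in the reference (at least 2.22-fold higher). It was above background in 2 ureters. Chat had 152, 253 and 262, against 112 in the reference (at least 1.65-fold higher), and did not pass (adjusted p = 0.467). The 3 lower genes were Tubb3 (at least 22.2-fold), a neuronal tubulin gene, Nefl (17.5-fold), a neurofilament gene, and Gap43 (6.35-fold), a gene of growing axons. The summed normalized intensity of the 18 genes was 50606, 46621 and 41769 in ureter replicates 1, 2 and 3, against 64735 in the reference, with 16, 11 and 14 of them above background in the ureters and 15 in the reference. The 3 brightest, Pmp22, Ncam1 and Erbb3, made up 43204, 39115 and 35045 of these sums in the ureters, against 42656 in the reference. The other 15 summed to 7402, 7506 and 6724 in the ureters, against 22080 in the reference. The 36 members summed to 12396, 13547 and 12124 in the ureters, against 63862 in the reference. Slc18a3, the vesicular acetylcholine transporter gene, was at background in all 4 arrays, and Erbb3 (-0.07), which Schwann cells and epithelia use, and Th (-0.01), the enzyme gene of noradrenaline synthesis, did not pass. The part of nerve fibres in the ureter values of the members was not tested. With 1 reference array, the spread between whole-mouse pools is unknown, and none of the differences between lists was tested.

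**Figure D4:**
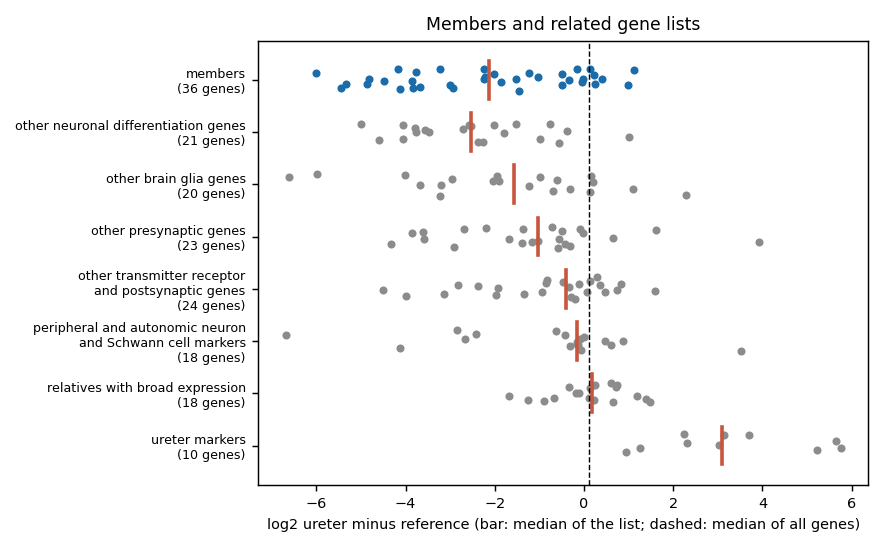
Log2 ureter minus reference of each gene (points, brightest probe set, all genes with a probe set) for the members in blue and the related lists in grey, with a red bar at each median and a dashed line at the median of all genes (0.10). The medians run from -2.53 for other neuronal differentiation genes and -2.12 for the members to 0.18 for the broadly expressed relatives and 3.09 for the ureter markers.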

How the data were processed

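Gene expression had been measured on Affymetrix MOE430 arrays, 3 of ureter and 1 of whole mouse. The deposited files give a linear-scale intensity for each probe set, and the submitters' processing notes name GCOS without a version, and no background method is given in the sources used here. The mean of the deposited intensities with 2% trimmed from each end was 1500 in every array, and the medians ranged from 154 to 332. The arrays were therefore quantile normalized here, with the deposited scaling as an alternative.

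An offset of 12.23, the 10th percentile of the deposited intensities, was added before log2, which understates changes of dim probe sets. Removed were 64 control probe sets and, of the rest, the dimmest 40% by the average of both group means. Limma 3.58.1 in R 4.3.3 (lmFit, eBayes with intensity trend, two-sided, threshold 0.05) had 2 residual degrees of freedom. It was also run on simulated data with the same noise in all probe sets and arrays. That run cannot show how the test behaves if the reference varies otherwise than the ureters. Gene names come from GEO's platform annotation, which gives 34945 probe sets 1 symbol, 932 several and 9160 none, and a gene stands at its brightest probe set. Where all arrays of the dimmer group were at background, the fold is a bound against the background limits. The number of arrays limits the precision. All members are named, with up to 3 called genes of largest change and 2 of smallest change per related list and a fixed set of relatives. Members and lists were chosen with earlier results of these data known.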

Additional observations from a re-analysis of the deposited data

How the results depend on the processing

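The count of member genes called lower (6) was 14 with an offset of 64 and stayed between 4 and 9 under the other alternatives, and none was called higher under any. Probe sets called lower (8) were 21 with an offset of 64, 4 without a trend, and between 4 and 11 when a ureter was left out (4 without replicate 3). The members' median of -2.12 became -2.60 as deposited, -1.87 with median-centred arrays, -1.81 with an offset of 64 and -1.31 when each gene's probe sets were averaged. Calls over all probe sets (1667) were 1075 with no filter, 904 without a trend, and between 317 (without replicate 3) and 2090 (without replicate 2) when a ureter was left out. The share of these calls that were higher was 43.5%, against 33.5% as deposited and 48.0% with median-centred arrays.

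Among members that passed the filter under the alternative too, signs turned for genes near 0. They were Vamp2 (-0.13), Camk2a (-0.42) and Grin2b (-0.61) as deposited, and Cplx2 with median-centred arrays (0.20) and averaged probe sets (0.45). With a ureter left out 3 genes turned. Camk2a lay between -0.013 (without replicate 1) and 0.39, Dlg4 between -0.37 and 0.034 (without replicate 2) and Syp between -0.33 and 0.30 (without replicate 2). The cause was not tested. Averages of members under the filter are left out here. For Gfap the probe sets were at -1.04, 1.12 and 2.16. Mapt and Map2 passed under all 11 alternatives. No paired analysis was possible because the reference is 1 sample. Below the background limits, no order among dim members is measured.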
